A study of Mus musculus with 6 samples.

Results

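The genes described here encode enzymes of the tricarboxylic acid (TCA) cycle and the routes by which pyruvate, malate, glutamate and aspartate carbon enters it. The set holds 29 genes, taken by name from textbook enzymology out of 38828 genes in the count files, and 26 of them had enough counts to be tested. The RNA is from Hepa1-6, an established mouse liver tumour line, grown in medium with 4.5 g/L glucose, glutamine and 10% serum. The 3 control libraries are from cells transfected with siRNA to Renilla luciferase, which mouse cells do not carry, and the other 3 from cells transfected with siRNA to Crebl2. Crebl2 is a small bZIP protein that resembles CREB, the cAMP-responsive transcription factor. All cells were harvested after 3 days of transfection with the same lipid reagent, and the labels do not say whether the libraries of a group came from separate cultures. P-values therefore measure the spread between these libraries, which may be technical. The comparison asks how the mRNA levels of these metabolic enzymes differ once Crebl2 is depleted.

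The cycle oxidises acetyl groups to carbon dioxide inside mitochondria and passes the electrons to the respiratory chain. Pyruvate enters through a carrier and is turned into acetyl-CoA by the pyruvate dehydrogenase complex, which kinases switch off and phosphatases switch on, or into oxaloacetate by pyruvate carboxylase. Glutamine and glutamate refill the cycle at 2-oxoglutarate. Several steps have a cytosolic and a mitochondrial enzyme, and in liver cells the malate-aspartate shuttle uses both kinds to carry reducing equivalents across the mitochondrial membrane.

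Total counts ran from 27082572 to 29158489 per library, and Crebl2 itself was at 114, 113 and 112 CPM (counts scaled to a common library total) in controls and 29.1, 29.8 and 32.3 CPM after its siRNA (edgeR adjusted p = 2.83e-12). Of 10 hepatocyte and fetal liver markers 6 had enough counts to be tested, among them Alb, Afp, Trf and Foxa3, while Hnf4a and Serpina1a were listed at 0 counts. Their summed level was 1070 to 1150 CPM in controls and 1040 to 1120 CPM after Crebl2 siRNA. Summed levels of 5 fibroblast markers, mostly Dcn, were 176 to 182 and 119 to 131 CPM. Those of 5 leukocyte markers, mostly Cd14, were 36.1 to 37.6 and 22.3 to 27 CPM, those of 5 endothelial markers, mostly Vwf, were 19.6 to 23.1 and 33.1 to 37.2 CPM, and those of 5 muscle markers, mostly Des, were 44.9 to 54.3 and 59.9 to 66.8 CPM. Hnf4a, Pdgfrb, Ptprc, Tek and Myh1 were at 0 but have only 0 to 55 bases of their own, so these zeros do not show that a cell type was missing. Markers that could be counted along their length went both ways within a list. Lum of fibroblasts had 3 counts over the controls and 2 over the knockdown libraries, but Col1a1 had 740 and 637. Cdh5 of endothelium had 1 and 2, but Vwf 1796 and 2955. In muscle Ckm had 1 and 3 and Acta1 7 and 37, but Des 4098 and 5203, and Cd14 of leukocytes had 3025 and 1979. The part of these cell types in the results below was not tested, and in such bulk samples fewer cells of a type and less RNA per cell cannot be told apart. Mitochondrially encoded genes took 0.859% of counts in Crebl2 siRNA replicate 2 and 2.09 to 2.52% in the other 5 libraries.

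Most members differed little between the groups. By edgeR's quasi-likelihood test with Benjamini-Hochberg adjustment over all genes, 4 of 26 tested members rose (Mdh2, Me2, Pdp1 and Pdp2) and 7 fell (Aco1, Glud1, Got1, Idh2, Mdh1, Pdha1 and Suclg2) at an adjusted p under 0.05. The raised members are 15.4% of those tested, against 18.8% of all 11616 genes, and the lowered ones 26.9%, against 20.1%. In either direction 42.3% of the members and 38.9% of all genes were called, so the share is near the background. Among genes of at least 100 CPM, 2 of 19 members rose and 6 fell (42.1% called), where 23.6% of all such genes rose and 30.3% fell (53.9% called). The median log2 fold change (log2 change below) was -0.01 over the members and 0.01 over all genes, and the median size of change regardless of direction was 0.11 against 0.21. Of the 11 called members 10 changed by less than 1.5-fold. Groups did not overlap for 11 members (all genes 48.8%).

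Scaling by library size alone raises all log2 changes by a median of 0.05 and gave 6 members raised and 5 lowered. Then Idh2 (adjusted p = 0.154) and Mdh1 (adjusted p = 0.111) were no longer called, and Idh3b (0.12, adjusted p = 0.0419) and Pdhx (adjusted p = 0.0257) were called higher. Without Crebl2 siRNA replicate 2, the library low in mitochondrial RNA, 3 members rose and 4 fell by edgeR. Aco1, Glud1, Got1, Pdha1, Mdh2, Me2 and Pdp2 kept their direction and their call in 14 of 15 alternative settings, and Me2 and Got1 also in the last, the test against a 1.2-fold change. In that test edgeR called only Me2 (adjusted p = 0.0386) upward and only Got1 (adjusted p = 0.0135) downward.

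**Figure D1:**
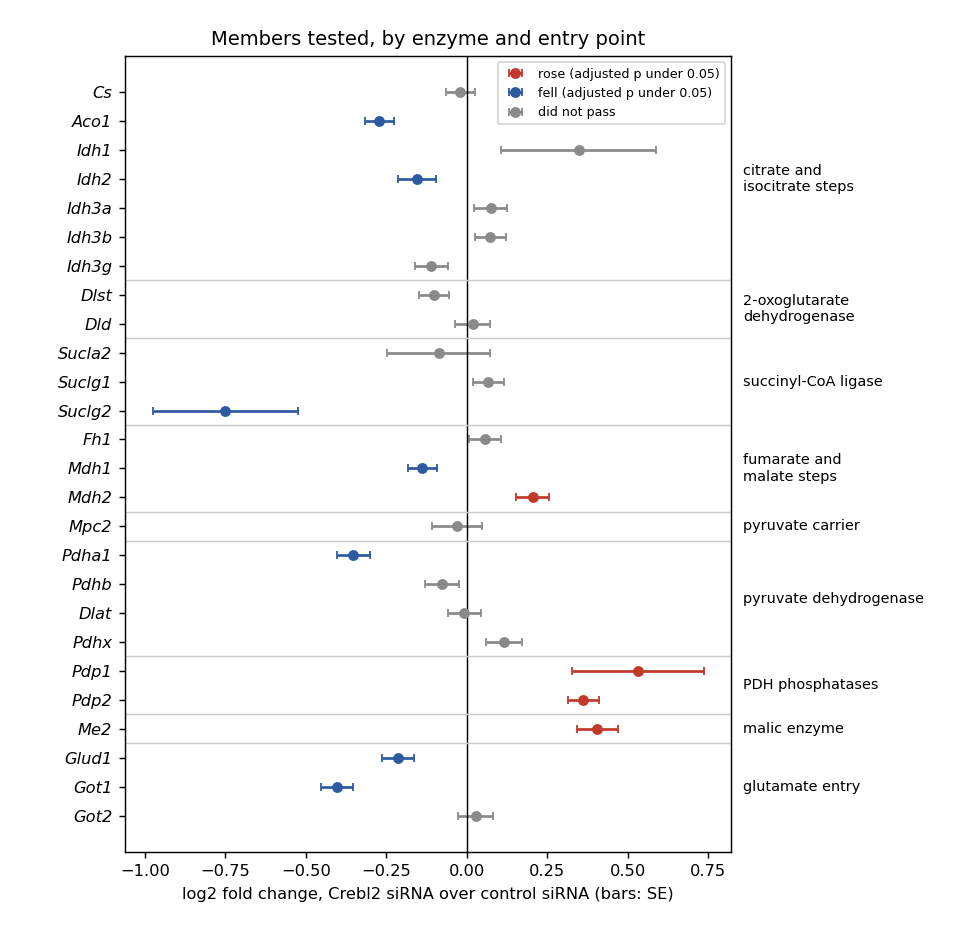
Log2 fold change (Crebl2 siRNA over control siRNA; points, with bars for the SE) of the 26 tested members, grouped by enzyme or entry point. The Idh3 and 2-oxoglutarate dehydrogenase subunits lie near 0, while Got1 (-0.40) and Pdha1 (-0.35) lie to the left and Me2 (0.41) and Pdp2 (0.36) to the right.

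Of 7 genes at the citrate and isocitrate steps Aco1 and Idh2 fell, a share near the background of lowered genes (20.1% of all tested, 30.3% of those of at least 100 CPM), and the call of Idh2 was lost in 9 of 15 alternative settings. Citrate synthase (Cs), which joins acetyl-CoA and oxaloacetate, stood at 1041, 1042 and 1033 CPM in controls and 1061, 1006 and 1007 CPM after Crebl2 siRNA. These ranges overlap, and the log2 change was -0.02 (SE 0.0454; edgeR adjusted p = 0.777), or 0.03 with library size scaling. Csl, a citrate synthase-like gene that shares 4.0% of the 50-base stretches of the Cs transcript, had a log2 change of -0.01.

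Aco1 (GRCm38, chromosome 4, 40143081 to 40198338, plus strand) encodes the cytosolic aconitase, which also serves as an iron regulatory protein when it lacks its iron-sulfur cluster. It was at 424, 418 and 418 CPM in controls and 354, 342 and 348 CPM after Crebl2 siRNA, so every knockdown library lay below every control. The fall was 0.27 on the log2 scale (log2 change -0.27, SE 0.0444; edgeR adjusted p = 0.000141).

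Isocitrate dehydrogenase exists as an NAD-dependent enzyme of the cycle, built from Idh3a, Idh3b and Idh3g, and as NADP-dependent enzymes in cytosol (Idh1) and mitochondria (Idh2). The catalytic subunit Idh3a had 194 ± 8.29 and 204 ± 5.53 CPM (SD, n = 3 each; log2 change 0.07), and the regulatory subunits Idh3b and Idh3g had log2 changes of 0.07 and -0.11. None of these 3 passed (edgeR adjusted p = 0.263, 0.241 and 0.0996), although Idh3g was called lower (adjusted p = 0.0329) without Crebl2 siRNA replicate 1. Idh2 (chromosome 7, 80094846 to 80115392, minus strand) was at 266, 286 and 259 CPM in controls and 264, 238 and 227 CPM after knockdown.

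The Idh2 ranges overlap, since Crebl2 siRNA replicate 1 lies within the control range, and its log2 change of -0.16 (SE 0.0588; edgeR adjusted p = 0.0464) only just passed. That call was lost without control replicate 1 (adjusted p = 0.0575), 2 (0.206) or 3 (0.0501), and without Crebl2 siRNA replicate 2 (0.16) or 3 (0.136), and with a filter at 1 CPM (0.0551). Idh1 rested on 22 to 38 counts per library, and its best-counted transcript has 175 bases of its own. Low expression and reads lost to shared bases cannot be told apart here. Its log2 change was 0.35 (SE 0.241; edgeR adjusted p = 0.274).

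The multi-enzyme 2-oxoglutarate dehydrogenase showed no called subunit. Dlst, its succinyl-transferring core, stood at 322 ± 6.65 CPM in controls and 300 ± 6.83 CPM after knockdown (SD, n = 3 each). The groups did not overlap, but the log2 change of -0.10 did not pass (edgeR adjusted p = 0.0933). Dld, the lipoamide dehydrogenase shared with pyruvate dehydrogenase, had 212 ± 4.54 and 214 ± 14.8 CPM (SD, n = 3 each; edgeR adjusted p = 0.823). Ogdh, the decarboxylating subunit, had 6, 5 and 5 counts in controls and 4, 2 and 1 after knockdown. Its 4 transcript models overlap almost completely, and the best-counted one has 83 bases of its own. The gene had too few counts to be tested, and the ratio of 0.438 has a 95% exact interval of 0.152 to 1.13.

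Succinyl-CoA ligase makes ATP or GTP from succinyl-CoA, depending on which beta subunit joins the common alpha subunit. The alpha subunit Suclg1 was at 200 ± 5.45 CPM in controls and 210 ± 4.81 CPM after knockdown (SD, n = 3 each; log2 change 0.07, edgeR adjusted p = 0.291). The ATP-forming beta subunit Sucla2 had 3.97 ± 0.246 and 3.74 ± 0.89 CPM (SD, n = 3 each; edgeR adjusted p = 0.712). The GTP-forming beta subunit Suclg2 had 61, 53 and 38 counts in controls and 36, 26 and 28 after knockdown.

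Suclg2 thus had the largest fall of the 26 members in log2 change, -0.75 (SE 0.226; edgeR adjusted p = 0.0144), and every knockdown library lay below every control. The ratio of scaled counts was 0.593, with a 95% exact interval of 0.452 to 0.774 that covers counting error only. The call was lost without control replicate 1 (adjusted p = 0.0699) or Crebl2 siRNA replicate 2 (0.062), and with DESeq2 (adjusted p = 0.0528). The counted transcript shares 21.8% of its 50-base stretches with the gene model Gm15163. It is 1 of 2 Suclg2 transcript models, holds 98.3% of the gene's counts and has 1245 of its 3367 bases to itself. A fall of this transcript alone and a fall of the whole gene cannot be told apart.

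At the last steps of the cycle the cytosolic and mitochondrial malate dehydrogenases differed in direction. Fumarase (Fh1) had 191 ± 6.34 CPM in controls and 198 ± 3.79 CPM after knockdown (SD, n = 3 each; edgeR adjusted p = 0.383). The mitochondrial enzyme Mdh2 (chromosome 5, 135778480 to 135790398, plus strand), which regenerates oxaloacetate and belongs to the malate-aspartate shuttle, was at 1323, 1401 and 1345 CPM in controls and 1627, 1601 and 1462 CPM after knockdown. All knockdown libraries lay above all controls, with a log2 change of 0.20 (SE 0.0511; edgeR adjusted p = 0.00444). The cytosolic Mdh1 (chromosome 11, 21556787 to 21572367, minus strand) went the other way, with 528, 535 and 532 CPM in controls and 485, 473 and 493 CPM after knockdown.

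The Mdh1 groups did not overlap either, and its log2 change was -0.14 (SE 0.0445; edgeR adjusted p = 0.0217). That call was lost without control replicate 2 (adjusted p = 0.0719) or 3 (0.0796) and without Crebl2 siRNA replicate 2 (0.118). The ratio of Mdh2 to Mdh1 counts within a library, which no scaling can alter, was 2.50, 2.62 and 2.53 in controls and 3.36, 3.39 and 2.97 after knockdown. This is a log2 difference of 0.34, several times the pooled SD of 0.079, and an exact two-sided permutation test gives p = 0.1, which is the lowest value this design can reach. Since each gene already separated the groups, in opposite directions, that p was fixed beforehand and adds no evidence.

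The Mdh2 start region is shown because it holds an 8-base cAMP response element, the palindrome bound by CREB family proteins. The element, in capitals, is at positions -127 to -120 from the RefSeq start (the last base before the start is -1). The GENCODE gene starts farther upstream, so that 169 of the 250 bases before the RefSeq start, the element included, lie inside that gene. The site is printed with 10 bases on either side (GRCm38.p6, chr5:135778512-135778539, plus strand).
Mdh2: gagagaatcgTGACGTCAggcctcgctc
No other tested member with a RefSeq promoter in the table holds this element, and the untested Ogdh holds it.

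The pyruvate dehydrogenase complex showed a lower catalytic subunit and higher activating phosphatases. Pyruvate reaches it through the carrier made of Mpc1 and Mpc2. Mpc2 stood at 31.6 ± 0.252 and 30.9 ± 3.4 CPM (SD, n = 3 each; edgeR adjusted p = 0.8). Mpc1 had 22 counts over the controls and 15 over the knockdown libraries, on 4 of its 5 overlapping transcript models, and was not tested.

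Pdha1, on the X chromosome (GRCm38, 160122209 to 160138413, minus strand), encodes the alpha subunit of the decarboxylase, whose phosphorylation turns the complex off. It was at 312, 310 and 285 CPM in controls and 235, 229 and 247 CPM after knockdown. The groups did not overlap, and Pdha1 fell by 0.35 on the log2 scale (SE 0.0517; edgeR adjusted p = 4.84e-05), a percent change of -21.6%. Of its 2848 transcript bases 603 overlap exons of Map3k15 on the opposite strand. Whether reads there were counted is not known, and levels per length below use the other 2245.

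No partner of Pdha1 in the complex passed the test. The beta subunit Pdhb had 110 ± 2.35 and 105 ± 5.04 CPM (SD, n = 3 each; log2 change -0.08, edgeR adjusted p = 0.283), and the acetyl-transferring core Dlat 176 ± 6.71 and 175 ± 6.77 CPM (SD, n = 3 each; edgeR adjusted p = 0.925). Pdhx, which anchors Dld to the core, had 49.6 ± 1.73 and 53.7 ± 0.321 CPM (SD, n = 3 each). Its groups did not overlap, with a log2 change of 0.12 and an edgeR adjusted p of 0.116. The Dlat estimate of -0.01 turned to 0.04 with library size scaling and to at most 0.02 when control replicate 1 or Crebl2 siRNA replicate 1 or 2 was left out. Pdhb shares 30.3% of its 50-base stretches with the gene model Gm6123.

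Pyruvate dehydrogenase phosphatase has alternative catalytic subunits, Pdp1 and Pdp2, and the regulatory subunit Pdpr. Pdp2 (chromosome 8, 104591451 to 104599026, plus strand), the better-counted form, was at 122, 115 and 119 CPM in controls and 154, 152 and 153 CPM after knockdown. No libraries overlapped, and Pdp2 rose by 0.36 on the log2 scale (SE 0.0491; edgeR adjusted p = 2.1e-05), a percent change of 28.6%. Pdpr rose by 0.42 in log2, being at 119, 99.5 and 106 CPM in controls and 136.5, 149.9 and 147 CPM after knockdown (SE 0.0646; edgeR adjusted p = 8.25e-05).

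Pdp1 had 41, 42 and 56 counts in controls and 56, 63 and 82 after knockdown, so the highest control equals the lowest knockdown library in counts. Its log2 change was 0.53 (SE 0.205; edgeR adjusted p = 0.0497), and the ratio of scaled counts was 1.45 with a 95% exact interval of 1.16 to 1.81. This call was lost with DESeq2 (adjusted p = 0.137), with limma-voom (0.055), and without control replicate 1 (0.153) or 2 (0.155) or Crebl2 siRNA replicate 2 (0.069) or 3 (0.21). The only Pdp1 transcript with reads to speak of has 1648 bases of its own, while 3 of the other 5 have none.

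Of the kinases that oppose the phosphatases, Pdk1 fell by 0.14 in log2, being at 295 ± 7.01 CPM in controls and 267 ± 9.58 CPM after knockdown (SD, n = 3 each; edgeR adjusted p = 0.0281). Without control replicate 2 (adjusted p = 0.05) or 3 (0.136) or Crebl2 siRNA replicate 1 (0.0905) that call was lost, as it was with library size scaling (0.149). The Pdk2 estimate was 0.17 in log2 (edgeR adjusted p = 0.0654) and Pdk4 one of -0.01 (edgeR adjusted p = 0.944), at 336 CPM in controls. Pdk3 was at 1 count in all. Lipt1, which attaches lipoyl groups to the dehydrogenase complexes, fell by 0.27 on the log2 scale (edgeR adjusted p = 0.00872). The ratio of Pdp2 to Pdha1 counts was 0.393, 0.372 and 0.418 in controls and 0.657, 0.664 and 0.62 after knockdown, a log2 difference of 0.72 against a pooled SD of 0.07. The ratio of Pdp2 to Pdk1 counts went from 0.404 ± 0.0129 to 0.573 ± 0.0247 (SD, n = 3 each). For both ratios the groups did not overlap and the exact permutation p was 0.1, the smallest possible. Pdp2 lay higher and Pdha1 and Pdk1 lower in every knockdown library than in every control. The separation of the ratios and their p were thus fixed by those values and add no evidence.

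The promoter of Pdp2 is shown as that of the better-counted phosphatase. The 229 bases that lie before both its RefSeq and its GENCODE start (GRCm38.p6, chr8:104591222-104591450, plus strand, positions -250 to -22 from the RefSeq start) carry in capitals the 5-base core TGACG of the cAMP response element and the CCAAT box, each on both strands, where TGACG reads CGTCA and CCAAT reads ATTGG on the other strand.
Pdp2: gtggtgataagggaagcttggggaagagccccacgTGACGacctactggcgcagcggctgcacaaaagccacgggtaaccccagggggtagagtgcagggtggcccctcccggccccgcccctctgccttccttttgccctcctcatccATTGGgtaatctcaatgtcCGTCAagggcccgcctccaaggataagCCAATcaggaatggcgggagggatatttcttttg
The core is at positions -215 to -211 and -82 to -78, and the CCAAT boxes are at -101 to -97 and -55 to -51.

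**Figure D2:**
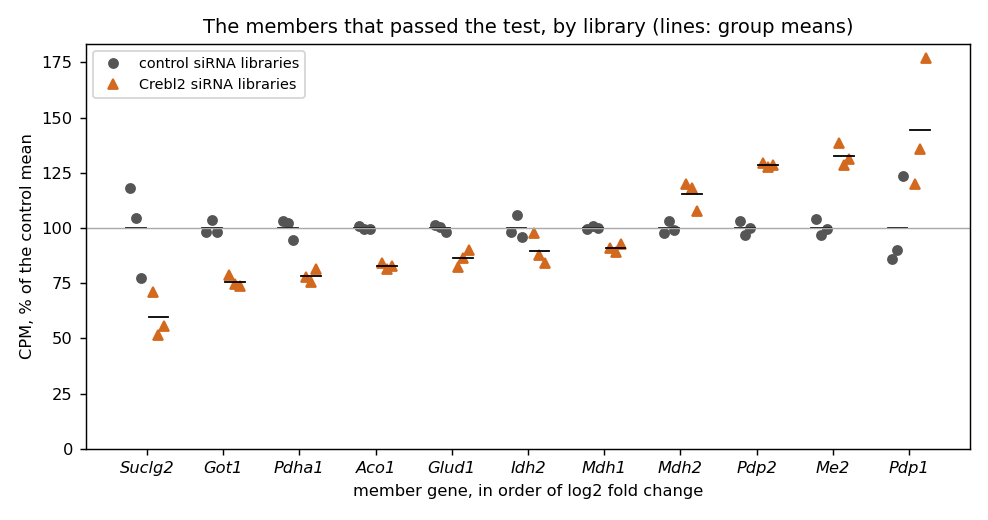
CPM of each library as a percentage of the control mean, for the 11 members that passed the test in order of log2 change (dots for control, triangles for Crebl2 siRNA, lines for group means). The groups separate for 9 of the 11, and overlap for Idh2 and Pdp1.

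Malic enzyme rose among the remaining carbon entry points. Me2, the mitochondrial NAD-dependent malic enzyme that makes pyruvate from malate, was at 29.4, 27.3 and 28.2 CPM in controls and 39.1, 36.3 and 37.1 CPM after knockdown. No libraries overlapped, and the log2 change of 0.41 (SE 0.0646; edgeR adjusted p = 0.000106) was called in each of the 15 alternative settings. Pyruvate carboxylase (Pcx), which makes oxaloacetate for gluconeogenesis and refilling of the cycle, had 2 counts over the 6 libraries. Its transcript models overlap each other, its best-counted row has 201 bases of its own, and 2 counts are too few to compare the groups. The other malic enzymes, Me1 and Me3, had 9 and 6 counts in all.

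Both routes from glutamate held a lowered gene. Glud1 (chromosome 14, 34310727 to 34345265, plus strand), glutamate dehydrogenase, which releases ammonia and yields 2-oxoglutarate, was at 305, 302 and 296 CPM in controls and 248, 260 and 271 CPM after knockdown. The groups did not overlap, and Glud1 fell by 0.21 on the log2 scale (SE 0.0487; edgeR adjusted p = 0.00234). The cytosolic aspartate transaminase Got1 (chromosome 19, 43499752 to 43524605, minus strand), which moves amino groups between glutamate and oxaloacetate, was at 223, 235 and 223 CPM in controls and 179, 169.5 and 167 CPM after knockdown.

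Got1 had the smallest p of the members, with a log2 change of -0.40 (SE 0.0498; edgeR adjusted p = 8.3e-06) and a percent change of -24.4%. The mitochondrial transaminase Got2 had 146 ± 4.84 CPM in controls and 148 ± 8.05 CPM after knockdown (SD, n = 3 each; log2 change 0.03, edgeR adjusted p = 0.718), and 32.3% of its 50-base stretches recur in the pseudogene Got2-ps1. The ratio of Got2 to Got1 counts was 0.628, 0.633 and 0.662 in controls and 0.881, 0.859 and 0.85 after knockdown. The log2 difference of 0.43 compares with a pooled SD of 0.034 (exact permutation p = 0.1, the smallest possible).

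The Got1 promoter is shown for its run of CCAAT boxes. The 250 bases before its RefSeq start (GRCm38.p6, chr19:43524606-43524855, minus strand) carry in capitals 5 such boxes, read as CCAAT or ATTGG, and the 7-base estrogen-related receptor element AAGGTCA near the far end.
Got1: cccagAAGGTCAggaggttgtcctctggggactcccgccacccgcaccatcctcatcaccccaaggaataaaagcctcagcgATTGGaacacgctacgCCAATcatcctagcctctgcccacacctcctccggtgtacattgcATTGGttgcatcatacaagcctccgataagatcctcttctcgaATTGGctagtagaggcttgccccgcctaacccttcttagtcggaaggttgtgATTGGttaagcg
The boxes are at positions -168 to -164, -152 to -148, -107 to -103, -64 to -60 and -12 to -8.

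Across compartments, 3 of the 4 cytosolic members fell (Aco1, Got1 and Mdh1), where 20.1% of all tested genes and 30.3% of those of at least 100 CPM fell. The call of Mdh1 was lost in 6 of 15 alternative settings, and Idh1, which did not pass, had few counts. Among the 22 tested mitochondrial members 4 rose and 4 fell. This grouping was made after the values were seen. The 4 within-library ratios given here were likewise chosen after the values were seen, and each had an exact permutation p of 0.1 (0.1 after Benjamini-Hochberg adjustment over the 6 ratios computed). For all of them but Got2 to Got1 this p followed from single genes that separated the groups in opposite directions.

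**Figure D3:**
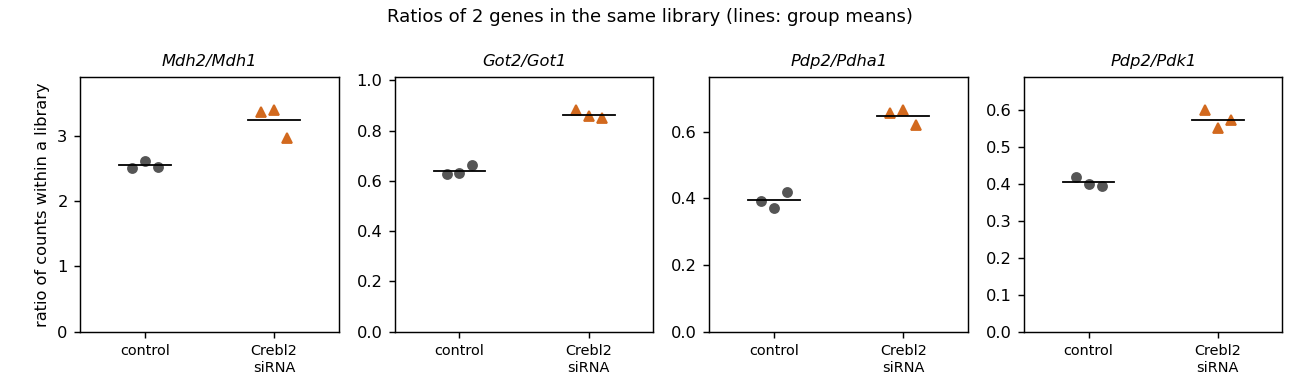
Ratio of the counts of 2 genes in the same library, for 4 pairs (dots for control, triangles for Crebl2 siRNA, lines for group means; each axis starts at 0). In each pair the 3 knockdown libraries lie above the 3 controls, as for Pdp2 to Pdha1 with means of 0.394 and 0.647.

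The rest of the pathway, 45 genes that complete the cycle or feed it, was measured for 35, of which 4 rose and 8 fell (34.3% called, background 38.9%). No succinate dehydrogenase subunit passed. Sdha, the flavin subunit, had 448 ± 16.5 and 442 ± 8.73 CPM (SD, n = 3 each), and the log2 changes of Sdha, Sdhb, Sdhc and Sdhd were -0.02, 0.04, 0.07 and -0.04, with edgeR adjusted p of 0.364 or higher. The assembly factor Sdhaf4 rose by 0.16 in log2 (edgeR adjusted p = 0.0452). Its call was lost in 9 of the 15 alternative settings, where the adjusted p reached 0.166 without control replicate 3 and 1.0 against a 1.2-fold change. The other runs without 1 library that lost it left out control replicate 1 (adjusted p = 0.0513) or 2 (0.152) or Crebl2 siRNA replicate 2 (0.111) or 3 (0.0525).

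In glutamine metabolism the synthesising enzyme rose. Glul, glutamine synthetase, went from 1860, 1920 and 1844 CPM to 2759, 2635 and 2661 CPM, without overlap, a log2 change of 0.52 (SE 0.0458; edgeR adjusted p = 2.12e-07). Gls2, the liver-type glutaminase, which runs the opposite reaction, rose by 0.42 in log2, being at 15.8 ± 0.614 CPM in controls and 21.1 ± 0.57 CPM after knockdown (SD, n = 3 each; edgeR adjusted p = 0.000307).

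The glutamine importer Slc1a5 fell by 0.22 in log2, being at 510.5 ± 21.3 CPM in controls and 438 ± 14.2 CPM after knockdown (SD, n = 3 each; edgeR adjusted p = 0.00181). Gpt2, the mitochondrial alanine transaminase that links pyruvate with glutamate, was at 156, 155 and 153 CPM in controls and 109, 103 and 105 CPM after knockdown, a fall of 0.55 on the log2 scale (edgeR adjusted p = 2.73e-07). For its cytosolic counterpart Gpt the estimate was -0.02 in log2 (edgeR adjusted p = 0.887). Of this pair the mitochondrial form passed the test, whereas of Got1 and Got2 it was the cytosolic form.

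Of 7 listed carriers of cycle intermediates, glutamate and aspartate across the inner membrane, 4 were tested and 3 of them fell, against 20.1% of all genes tested. Slc25a13, Slc25a18 and Slc25a22 had too few counts. The citrate carrier Slc25a1 stood at 239 ± 6.0 CPM in controls and 158 ± 9.59 CPM after knockdown and fell by 0.59 in log2 (SD, n = 3 each; edgeR adjusted p = 2.55e-07). The dicarboxylate carrier Slc25a10 fell by 0.49 (272 ± 8.32 to 193 ± 24.4 CPM; SD, n = 3 each; edgeR adjusted p = 3.77e-05) and the 2-oxoglutarate carrier Slc25a11 by 0.20 (251 ± 0.4 to 218 ± 3.34 CPM; SD, n = 3 each; edgeR adjusted p = 0.00202). Slc25a11 exchanges malate for 2-oxoglutarate in the malate-aspartate shuttle, and Slc25a12, an aspartate-glutamate carrier of the shuttle, had a log2 change of -0.06 (edgeR adjusted p = 0.402). The liver form of that carrier, Slc25a13, was listed at 0 counts, and its transcript models have 1 and 55 bases of their own, so its level could not be measured. Pck2, which draws oxaloacetate out of the cycle as phosphoenolpyruvate, fell by 0.42 (315 ± 13.1 to 235 ± 19.0 CPM; SD, n = 3 each; edgeR adjusted p = 2.77e-05).

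**Figure D4:**
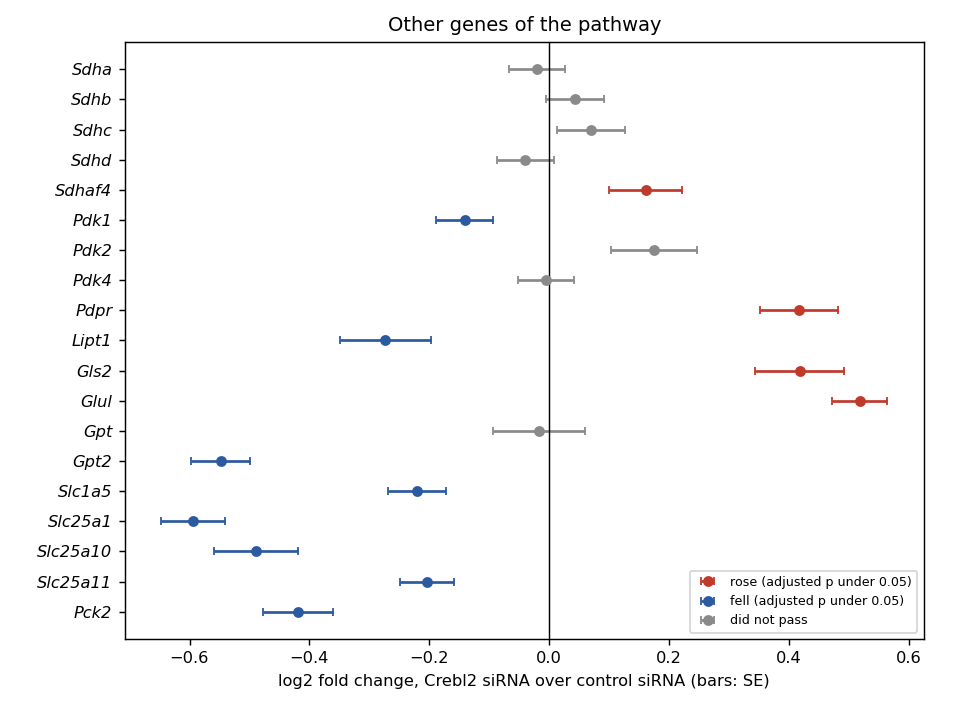
Log2 fold change (Crebl2 siRNA over control siRNA; points, with bars for the SE) of 19 other genes of the pathway. The 4 succinate dehydrogenase subunits lie near 0, Glul (0.52) lies farthest to the right and Slc25a1 (-0.59) farthest to the left.

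Levels of different genes can be set side by side only per length, here as CPM per kilobase of bases unique to the counted transcript. Among the members in controls Mdh2 led with 932 ± 27.4, followed by Cs with 355 ± 1.69, Mdh1 with 251 ± 1.66 and Idh2 with 200 ± 10.1 (SD, n = 3 each). Idh3b came next at 197 ± 5.57, which does not differ from Idh2 beyond their spread, while its partner subunits Idh3g and Idh3a were at 180 ± 5.84 and 80.6 ± 3.45 (SD, n = 3 each).

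Within pyruvate dehydrogenase, control levels per kilobase ran from 135 ± 6.56 for Pdha1 through 83.2 ± 1.78 for Dld, 72.8 ± 1.55 for Pdhb and 43.6 ± 1.66 for Dlat to 26.8 ± 0.935 for Pdhx (SD, n = 3 each). After Crebl2 siRNA Pdha1 was at 105 on this scale and still the highest of the 5, with Dld next at 84.3. If reads on the 603 bases that overlap Map3k15 were counted, the Pdha1 levels are overstated and this rank may not hold. The kinases Pdk4 (96.4) and Pdk1 (56.9) lay above the phosphatases Pdp2 (20.9 ± 0.637) and Pdp1 (1.01) in controls, while Pdk2 (19 ± 1.21) lay at or below Pdp2, all as levels per kilobase (SD, n = 3 each where given). In succinyl-CoA ligase the alpha subunit Suclg1 (132) lay far above its beta subunits Sucla2 (5.81) and Suclg2 (1.46), each of which has a further transcript model. Reads lost to shared or repeated bases lower a gene's level on this scale by an amount that was not measured.

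**Figure D5:**
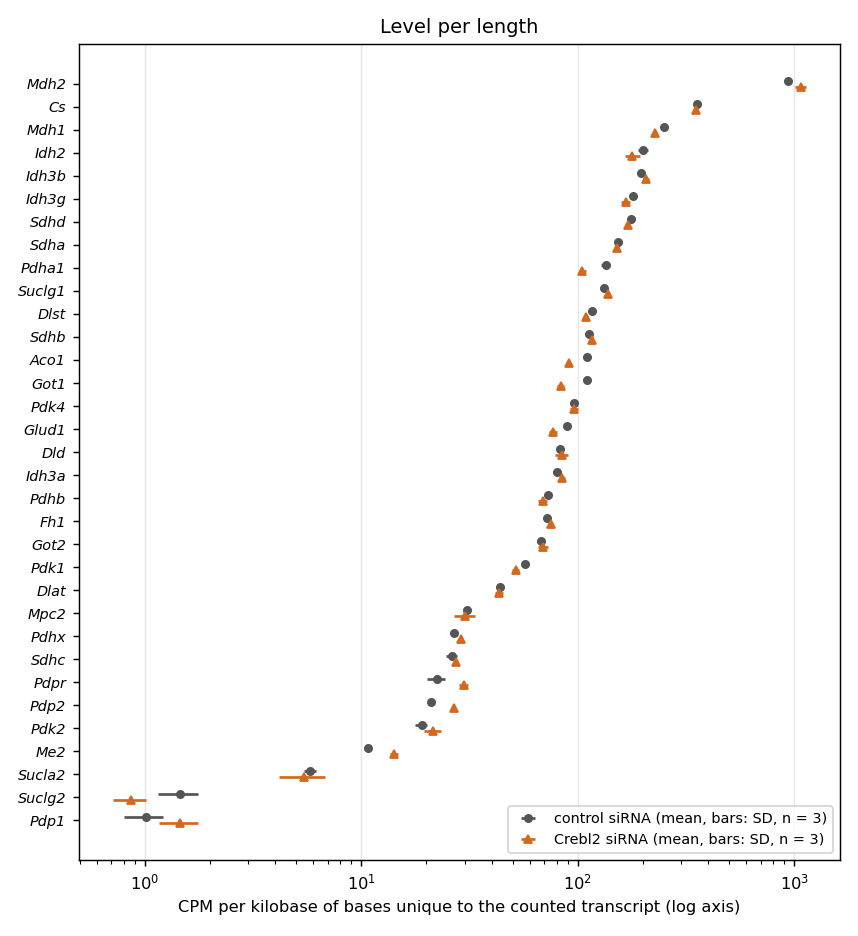
CPM per kilobase of unique bases (log axis) in control and Crebl2 siRNA libraries for members and selected other genes of the pathway (means, with bars for the SD, n = 3). Of the genes plotted Mdh2 is highest at 932 in controls, and most pairs of points coincide apart from genes such as Pdha1 (135 and 105) and Got1 (110 and 83.5).

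RefSeq promoters (GRCm38.p6, 250 bases before to 50 after each start) were found for 26 of the 29 members, and Idh3a, Pdp1 and Me2 had no entry. The full element TGACGTCA was in those of Mdh2 and Ogdh, 2 of 26 genes (7.69%), against 1.79% of all 32851 promoters and 3.50% of 8333 tested genes with a promoter. Of these 2 carriers Ogdh was not tested. Among tested members with a promoter the element was in 1 of 2 raised, 0 of 7 lowered and 0 of 14 uncalled genes. The contained core TGACG was in 12 of 26 (46.2%; 20.8% of all promoters, 34.6% of tested genes), namely in both raised members with a promoter, 1 of 7 lowered and 8 of 14 uncalled ones. Among all tested genes the core was in 33.1% of raised, 34.0% of lowered and 35.3% of uncalled genes. The palindromic NRF1 element of 10 bases was in 0 of 26 members (0.971% of all promoters, 2.27% of tested genes), AAGGTCA in Got1 and Ogdh (4.72% of all promoters, 3.97% of tested genes), and CCAAT in 16 of 26 (61.5%; 37.4% of all promoters, 42.4% of tested genes). Shares of members and of tested genes are per gene with any promoter that holds the motif, and those of all promoters are per promoter. The 26 members include the 3 untested ones, so their shares and those of tested genes are not of like sets. Untested members hold the core in 1 of 3, AAGGTCA in 1 of 3 and CCAAT in 3 of 3. Both strands were searched. A match is a description of letters and not of a bound site.

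A 7-base word, GAAATGT, was searched in annotated 3' untranslated regions because earlier work on these data had found it more often in lowered genes. Over all tested genes searched the lowered genes held it in 29.2%, the uncalled ones in 16.5% and the raised ones in 11.9%, and their regions had median lengths of 1385, 995 and 986.5 bases. Among the members it was in 1 of 7 lowered genes (Pdha1), 2 of 15 uncalled ones (Dlat and Pdhx) and 2 of 4 raised ones (Pdp1 and Pdp2). The site of Pdha1 and that of Pdp2 are shown with 10 bases on either side and the word in capitals, to set a lowered beside a raised carrier of the same word.
Pdha1: tatcgcaacaGAAATGTcatgtgctgt
Pdp2: tgaacttcagGAAATGTgtccctaaac
The labels do not give the siRNA's sequence, and the part of this word in the fall of Pdha1 was not tested.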

How the data were processed

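RNA from 6 libraries was sequenced after a stranded total RNA preparation, per the labels' protocols. The authors deposited unnormalised read counts, 1 row per Ensembl transcript and 58611 rows in each library. Per the submitters' processing notes, Trim Galore, TopHat and HTSeq were used and the builds mm9 and GRCm38 are named, without versions or roles; no source used here gives the counting mode or the use of strand. Of the rows, 58264 matched GENCODE M21 (GRCm38), whose coordinates are used, and 347 did not; these held at most 0.0497% of counts. Rows without a base of their own (9603) held 0.0235% of counts, so a count reflects bases unique to 1 transcript.

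Counts were summed per gene; 20 of the 29 members have 1 row. edgeR 4.0.16 (R 4.3.3) with TMM scaling, filterByExpr and a two-sided quasi-likelihood test compared the groups over 11616 genes at an adjusted p under 0.05. Each SE was derived from the log2 fold change and the F statistic, and CPM use TMM-scaled library sizes. Low ratios carry 95% exact Clopper-Pearson intervals that cover counting error alone, because PCR copies could not be told from separate molecules. Alternatives were edgeR's RLE scaling, library size scaling, no filter, a filter of 1 CPM in 3 libraries, DESeq2 1.42.0, limma-voom (limma 3.58.1), a replicate block, each library left out, the best-counted row alone and a test against a 1.2-fold change. On simulated counts for this comparison (11616 genes, 200 changed) edgeR recovered 64.2% of 1.5-fold, 86.6% of 2-fold and 98.5% of 4-fold changes, and 5.14% of 175 calls were false. The simulation changed far fewer genes than the 4518 called in the data and held no change under 1.5-fold. It therefore does not give the recovery or the false share of the smaller changes described here.

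The members and lists were chosen with earlier results of these data known. Named are Crebl2, all members and, of the 45 other pathway genes, the succinate dehydrogenase subunits and up to 14 called ones with the smallest p; the others were named after their values were seen, and some of the 45 are not reported here. A planned comparison of protein sequences was not made.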

Additional observations from a re-analysis of the deposited data

How the results depend on the processing

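Of the counts of called genes, those against a 1.2-fold change moved most, by construction of a test that asks for more than a difference: 709 genes rose and 917 fell in all, 1 member rose and 1 fell, and 4 other pathway genes fell. Without Crebl2 siRNA replicate 2 the members lowered were 4; with 1 library left out in turn they ran from 4 to 8, members raised from 3 to 4, other pathway genes raised from 3 to 4 and lowered from 7 to 9, all genes raised from 1694 to 2243 and lowered from 1922 to 2397. Estimates near 0 changed sign. With library size scaling Cs went to 0.0295, Mpc2 to 0.02, Dlat to 0.0412, Sdha to 0.0286 and Sdhd to 0.0095. With a library left out, Dld ran from -0.0398 to 0.051, Sucla2 from -0.289 to 0.057, Mpc2 from -0.1 to 0.057, Dlat from -0.0401 to 0.0194, Got2 from -0.0144 to 0.059 and Sdha from -0.0443 to 0.0069, none of them called. The log2 fold change of Crebl2 kept its call in each of 15 alternatives. The cause of other changes was not tested.

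Replicate numbers are shared between the groups, but deviations of same-numbered libraries from their group means correlated at -0.133, -0.044 and -0.085 over genes. The counts thus show no positive link between same-numbered libraries. Whether such libraries were prepared together cannot be told from these values. With the replicate block 4 members rose and 5 fell, 3 and 7 other pathway genes did, and 1882 and 2101 genes did in all. Low counts limit Idh1, Ogdh, Mpc1, Pcx, Sucla2, Suclg2 and Pdp1, whose best-counted transcripts share most of their bases. Low expression and reads lost to shared bases cannot be told apart for them.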
